A study of Homo sapiens with 15 samples.

Results

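ADAM and ADAMTS genes were followed through ribosome footprints of cultured HEK293 cells, a human line of embryonic kidney origin. The members are 9 genes picked by name from 55773 gene names: ADAM9, ADAM10, ADAM12, ADAM15 and ADAM17 of the membrane-bound ADAM family, and ADAMTS1, ADAMTS3, ADAMTS5 and ADAMTS9 of the secreted ADAMTS family. They were chosen on their own footprint levels, because ADAM9 was low with tagged ZC3H7B and ADAMTS1 was low with tagged ZC3H7A. Their values in those comparisons are therefore given as a description, without a test.

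There were 15 libraries in 5 groups of 3. In the first set, Flp-In T-REx 293 lines carried an inducible Flag/HA tag alone (Flag/HA-control), Flag/HA-tagged ZC3H7A or Flag/HA-tagged ZC3H7B, and all 3 lines were given doxycycline at 1 µg/mL for 24 h and are described as independent replicates. The tagged proteins belong to the same family of zinc finger proteins that bind RNA. In the second set, a Parental wild-type line with a control hairpin (shCTR) was set against a line labelled ZC3H7A/B-DD, a ZC3H7A knockout with a hairpin to ZC3H7B, and both had been under puromycin at 5 µg/mL and were lysed with cycloheximide at 100 µg/mL. Lysis, kit and laboratory differ between the sets, so changes were computed within each. Every construct sits in a line of its own, so a difference between lines and an effect of the protein cannot be told apart. For the second set nothing says that replicates were separate cultures, so p-values there reflect how far these samples spread, and that spread may be technical.

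ADAM proteins sit in the cell membrane and cut other membrane proteins near the surface, a process called ectodomain shedding that frees growth factors, Notch fragments and adhesion molecules. ADAMTS proteins are secreted, bind the extracellular matrix and cut proteoglycans and procollagens. Both are made as inactive precursors, both hold a catalytic zinc between histidines of a conserved motif, and tissue inhibitors of metalloproteases (TIMPs) block many of them. A footprint count rises with the amount of an mRNA and with the ribosomes on it, and these libraries do not separate the one from the other.

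The series concerns codons, so the stretch that encodes the zinc-binding motif is shown for the 6 members outside ADAM9 that were well covered. It is the most comparable piece of coding sequence across the family. Sequences are GENCODE release 29 transcripts, 5′ to 3′ on the coding strand, and capitals mark a codon whose last base is A or T.

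ADAM10: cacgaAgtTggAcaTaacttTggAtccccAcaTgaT
ADAM15: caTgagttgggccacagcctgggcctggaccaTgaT
ADAM17: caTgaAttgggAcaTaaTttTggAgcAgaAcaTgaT
ADAMTS1: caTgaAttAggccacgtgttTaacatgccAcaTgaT
ADAMTS3: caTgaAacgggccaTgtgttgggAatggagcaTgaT
ADAMTS9: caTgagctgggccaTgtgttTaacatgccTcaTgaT

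On GRCh38 these lie on the minus strand except ADAM15. The ADAM10 stretch joins exons 9 and 10 at chr15:58627878-58633225, and the ADAM17 stretch lies within exon 11 at chr2:9510075-9510110. The ADAM15 stretch lies within exon 11 at chr1:155056995-155057030. The ADAMTS1 stretch joins exons 3 and 4 at chr21:26841140-26841867, that of ADAMTS3 joins exons 8 and 9 at chr4:72319457-72319874, and that of ADAMTS9 joins exons 8 and 9 at chr3:64651145-64654369. Of the 12 codons shown, 11 end in A or T in ADAM17 and 9 in ADAM10, against 3 in ADAM15. ADAMTS1 has 7 such codons, and ADAMTS3 and ADAMTS9 have 6 each.

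Libraries of the Flag/HA set held 22661812 to 29515572 assigned reads, and those of the second set 20777204 to 42680589. The tagged genes were high in their own lines: ZC3H7A footprints averaged 38044 normalized counts with the ZC3H7A construct against 6548 in the control, and ZC3H7B footprints 27885 with the ZC3H7B construct against 2152. In the libraries labelled ZC3H7A/B-DD neither target was lower. ZC3H7A stood at 7116, 1890 and 5066 normalized counts there against 1885, 1820 and 2311 in Parental, and ZC3H7B averaged 3105 against 2470. Directions from that comparison are therefore directions between libraries with these labels. Of 7 HEK293 markers, 7 reached a mean of 10 in every group. Among the fibroblast markers (summed level 61.4 to 165 over all libraries) 1 to 3 of 6 did, and among blood cell markers 1 or 2 of 6 did. PTPRC, CD3E, LYZ and CD68, which mark white blood cells, averaged under 10 in every group, and no listed marker was at 0 throughout a group. The summed blood list was 603 to 797 in control libraries, and most of that was HBB. Lines with tagged ZC3H7A had 244 to 319 and those with tagged ZC3H7B 327 to 432. It was 155 to 209 in Parental and 301 to 358 in the libraries labelled ZC3H7A/B-DD. The summed HEK293 markers were 22633 to 32425 in Parental and 40994 to 45656 in the libraries labelled ZC3H7A/B-DD. VIM made up most of that sum (mean 21922 and 41677), while KRT8 (1098 and 209), KRT18 (1125 and 591), LIN28B (1425 and 695) and PAX2 (223 and 141) were lower in the latter. The part of these markers in the results was not tested.

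**Figure D1:**
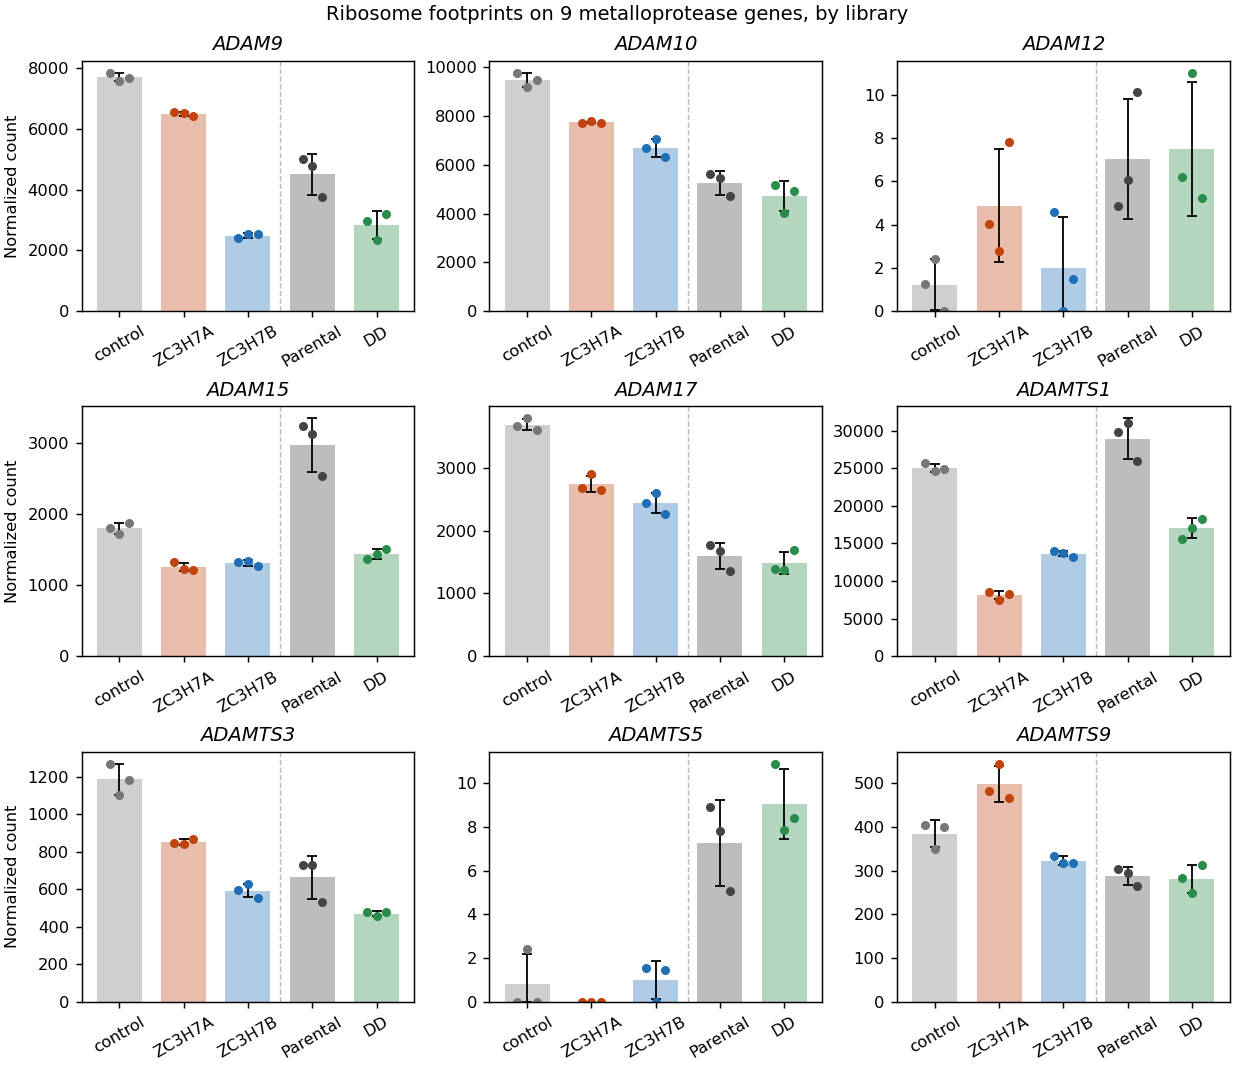
Normalized footprint counts (vertical axes, from 0, a scale of its own for each gene) of the 9 members. Points are libraries, bars are group means and error bars are the SD of 3 libraries, ended at 0 where they would cross it. The dashed line parts the 2 sets, whose levels are not compared. ADAM9 is lowest with ZC3H7B and ADAMTS1 with ZC3H7A within the Flag/HA set, while ADAM12 and ADAMTS5 stay at about 11 or fewer normalized counts throughout.

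Of the 9 members, 7 passed the filter of 10 normalized counts in at least 3 libraries in each fit. ADAM12, a membrane protease with alternative secreted forms, and ADAMTS5, an aggrecan-cutting enzyme, did not. ADAM12 had 3 reads in all in the control, 11 with ZC3H7A, 4 with ZC3H7B, 23 in Parental and 20 in the libraries labelled ZC3H7A/B-DD. ADAMTS5 had 2, 0, 2, 25 and 27 reads in the same order. The 0 with ZC3H7A has an exact 95% Poisson upper bound of 3.69 reads, which covers counting error only. A difference in either gene was not detectable at this depth.

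Levels between genes were compared per kilobase of coding sequence. In the control the order from the top was ADAMTS1 (8631 ± 176 normalized counts per kb, SD, n = 3), ADAM10 (4217 ± 132), ADAM9 (3132 ± 52.4), ADAM17 (1489 ± 36.9), ADAM15 (696 ± 29.8), ADAMTS3 (328 ± 22.7) and ADAMTS9 (66.3 ± 5.18). Neighbours in this order did not overlap in any library. With ZC3H7A the top place went to ADAM10 at 3447 ± 14.6 per kb, and ADAMTS1 (2795 ± 195) and ADAM9 (2642 ± 30) overlapped. With ZC3H7B, ADAMTS1 led at 4702 ± 135 per kb and ADAM9 (1009 ± 28.98) overlapped with ADAM17 (984 ± 65.5). In Parental, ADAM15 (1145 ± 147 per kb) stood above ADAM17 (645 ± 86.5). For the line labelled ZC3H7A/B-DD, ADAM15 (556 ± 25.7 per kb) and ADAM17 (600 ± 72.6) overlapped.

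ADAM9, a widely expressed sheddase, had the lowest share of its control level with ZC3H7B among the 7 members past the filter. Its control libraries held 7845, 7591 and 7680 normalized counts, those with ZC3H7A 6561, 6521 and 6418, and those with ZC3H7B 2401, 2526 and 2523. The 3 groups did not overlap, with ZC3H7B far below the other 2. The log2 change was -1.63 ± 0.04 (SE) with ZC3H7B, or 3.10-fold lower, and -0.25 ± 0.04 with ZC3H7A. Under quantile scaling the latter was -0.12. In bulk libraries, fewer cells with a transcript and less of it per cell cannot be told apart.

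ADAM10 is the protease that releases the Notch ectodomain and starts alpha-cleavage of the amyloid precursor. Its control libraries held 9774, 9179 and 9472 normalized counts, those with ZC3H7A 7737, 7782 and 7718, and those with ZC3H7B 6702, 7042 and 6314. Every library with a tagged protein lay under every control library. The log2 changes were -0.29 ± 0.05 (SE) with ZC3H7A and -0.50 ± 0.05 with ZC3H7B. Quantile scaling gave -0.17 for ZC3H7A.

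ADAM17, also called TACE, sheds tumor necrosis factor and ligands of the EGF receptor. Its control libraries held 3666, 3785 and 3605 normalized counts, those with ZC3H7A 2683, 2894 and 2649, and those with ZC3H7B 2445, 2593 and 2269. The control lay above both, at log2 changes of -0.43 ± 0.05 (SE) with ZC3H7A and -0.60 ± 0.05 with ZC3H7B. ADAM15, which carries an integrin-binding motif, held 1809, 1725 and 1879 in the control, 1326, 1231 and 1212 with ZC3H7A, and 1324, 1344 and 1269 with ZC3H7B. Here the 2 tagged lines overlapped with each other and lay below the control, at -0.52 ± 0.06 and -0.46 ± 0.06.

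ADAMTS1, a secreted protease that cuts aggrecan and versican, had the lowest share of its control level with ZC3H7A among the 7 members past the filter. Its control libraries held 25643, 24675 and 24878 normalized counts, those with ZC3H7A 8582, 7486 and 8283, and those with ZC3H7B 14007, 13726 and 13234. The 3 groups stood apart, in the order control, ZC3H7B, ZC3H7A. The log2 change was -1.63 ± 0.05 (SE) with ZC3H7A, or 3.09-fold lower, and -0.88 ± 0.05 with ZC3H7B, or 1.84-fold lower. The log2 difference of ZC3H7A from ZC3H7B was 1.39 ± 0.04 for ADAM9 and -0.75 ± 0.05 for ADAMTS1. This opposite order is part of what chose the members, so nothing is read from it.

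ADAMTS3 is a procollagen N-propeptidase that also matures VEGFC. Its control libraries held 1271, 1107 and 1187 normalized counts, those with ZC3H7A 849, 840 and 869, and those with ZC3H7B 598, 628 and 556. The groups stood apart, at log2 changes of -0.48 ± 0.07 (SE) with ZC3H7A and -0.999 ± 0.07 with ZC3H7B. ADAMTS9, a versican-cutting protease, was the only one of the 7 members past the filter that stood above the control in a tagged line. It held 405, 351 and 400 in the control, 483, 545 and 466 with ZC3H7A and 335, 317 and 317 with ZC3H7B. Its log2 changes were 0.37 ± 0.09 with ZC3H7A and -0.25 ± 0.09 with ZC3H7B. The antisense genes ADAMTS9-AS1 and ADAMTS9-AS2 held at most 3.89 normalized counts in any library. Whether counting used strand is not given in the sources used here.

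In the Flag/HA set the SD of the 7 members was 0.425% to 8.36% of the group mean, and in the second set 2.52% to 17.2%. In each comparison with the control 7 of 7 did not overlap with it, beside 63.9% of 15599 genes with ZC3H7A and 61.1% with ZC3H7B. The median log2 change of the 7 was -0.43 with ZC3H7A and -0.60 with ZC3H7B, where the median of all genes was 0.02 and 0.04. The members were picked on these comparisons and both share the control libraries, so nothing is read from these values.

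**Figure D2:**
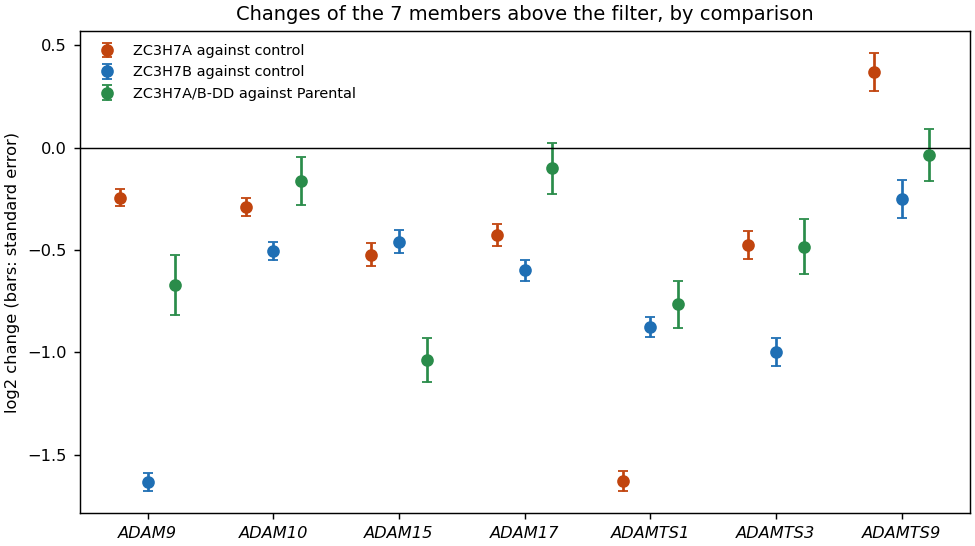
log2 changes (vertical axis) of the 7 members that passed the filter, with standard errors from limma, for ZC3H7A and ZC3H7B against the Flag/HA control and for the libraries labelled ZC3H7A/B-DD against Parental. ADAM9 with ZC3H7B and ADAMTS1 with ZC3H7A share a log2 change of -1.63, and ADAM15 is the lowest member in the third comparison at -1.04.

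The stated reason for choosing the members names no value of the libraries labelled ZC3H7A/B-DD against Parental. Members were still chosen with earlier results of these data known, so the counts here may not be free of that choice. ADAM9, ADAM15, ADAMTS1 and ADAMTS3 fell, 4 of the 7 tested, and 0 rose, beside 13.5% of 17092 genes called lower and 11.0% called higher. In the same 4 the 3 libraries lay below all 3 Parental libraries, beside 40.8% of all genes that did not overlap. The median log2 change of the 7 was -0.48, against 0.02 for all genes. Parental replicate 3 was the lowest Parental library for each of the 7. Its squared differences from the other Parental replicates were 64.6 and 87.9 times those of counting noise. Without it the limma adjusted p was 0.00125 for ADAM9, 2.32e-05 for ADAM15, 0.000178 for ADAMTS1 and 0.00101 for ADAMTS3, and the other 3 members again did not pass.

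ADAM15 changed most. Its Parental libraries held 3246, 3124 and 2536 normalized counts and the libraries labelled ZC3H7A/B-DD 1375, 1438 and 1508. The group mean was 2.06-fold lower, and all 3 libraries lay below Parental (log2 change -1.04, SE 0.11, 95% interval -1.28 to -0.79, limma adjusted p = 0.000291). Over 18 alternatives its adjusted p ran from 1.81e-15 to 0.00612.

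ADAMTS1 held 29838, 31051 and 25924 normalized counts in Parental and 15643, 17106 and 18308 in the libraries labelled ZC3H7A/B-DD. It was 1.70-fold lower (log2 change -0.76, SE 0.11, 95% interval -1.02 to -0.51, limma adjusted p = 0.00192), and the groups stood apart. ADAMTS1 was lower than its own reference in each of the 3 comparisons, with a tagged protein present and in the line labelled as depleted. So were all libraries of ADAM9, ADAM15 and ADAMTS3, and the group means of ADAM10 and ADAM17. The Flag/HA values chose the members, so nothing is read from this.

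ADAM9 held 5021, 4768 and 3741 normalized counts in Parental and 2957, 2328 and 3209 in the libraries labelled ZC3H7A/B-DD. All 3 lay below Parental (log2 change -0.67, SE 0.15, 95% interval -1.002 to -0.34, limma adjusted p = 0.0109). Without Parental replicate 2 the limma adjusted p was 0.0506. ADAMTS3 held 730, 732 and 533 against 477, 457 and 478 (log2 change -0.48, SE 0.13, 95% interval -0.78 to -0.18, limma adjusted p = 0.0289). This call was lost when any single library other than Parental replicate 3 was left out (limma adjusted p 0.0658 to 0.126) and without the intensity trend (0.0706).

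The other 3 members did not pass the limma test, and their libraries overlapped. ADAM10 held 5641, 5455 and 4703 normalized counts in Parental and 5186, 4020 and 4943 in the libraries labelled ZC3H7A/B-DD (log2 change -0.16, 95% interval -0.43 to 0.10, adjusted p = 0.347). ADAM17 held 1763, 1669 and 1354 against 1388, 1375 and 1693 (-0.10, interval -0.38 to 0.18, adjusted p = 0.593). ADAMTS9 held 304, 295 and 265 against 283, 249 and 313 (-0.04, interval -0.32 to 0.25, adjusted p = 0.864).

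Codon endings differed widely among the members. The share of codons that end in A or T was 66.8% in ADAM10, 61.5% in ADAM9, 56.6% in ADAMTS3, 54.3% in ADAM17 and 49.95% in ADAMTS9. It was 42.4% in ADAM12, 40.1% in ADAMTS1, 35.2% in ADAMTS5 and 32.7% in ADAM15, and the median of 18285 coding genes was 39.4%. Across the 12855 tested genes of the Flag/HA set with a coding sequence, Spearman's rho between this share and the log2 change was -0.27 with ZC3H7A and -0.29 with ZC3H7B. Over 13018 genes it was 0.10 for ZC3H7A/B-DD against Parental. Genes are not independent replicates and share the libraries, so these are descriptions.

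Set against genes of like codon ending, ADAM10 and ADAM9 fall in the top 20% of genes by A or T endings, whose median log2 change was -0.14 with ZC3H7A, -0.15 with ZC3H7B and 0.10 in the libraries labelled ZC3H7A/B-DD. ADAMTS1 falls in the middle 20%, with medians of 0.02, 0.05 and -0.03 in the same order. ADAM15 falls in the 20% of genes next to the bottom, where medians were 0.11, 0.12 and -0.04. The third comparison is not named in the reason for choosing the members. Its changes are given from the highest share of A or T endings to the lowest. They were -0.16 (ADAM10), -0.67 (ADAM9), -0.48 (ADAMTS3), -0.10 (ADAM17), -0.04 (ADAMTS9), -0.76 (ADAMTS1) and -1.04 (ADAM15). With 7 members no relation was tested, and the values of ADAM9 with ZC3H7B and ADAMTS1 with ZC3H7A chose the members, so nothing is read from their place beside these medians.

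**Figure D3:**
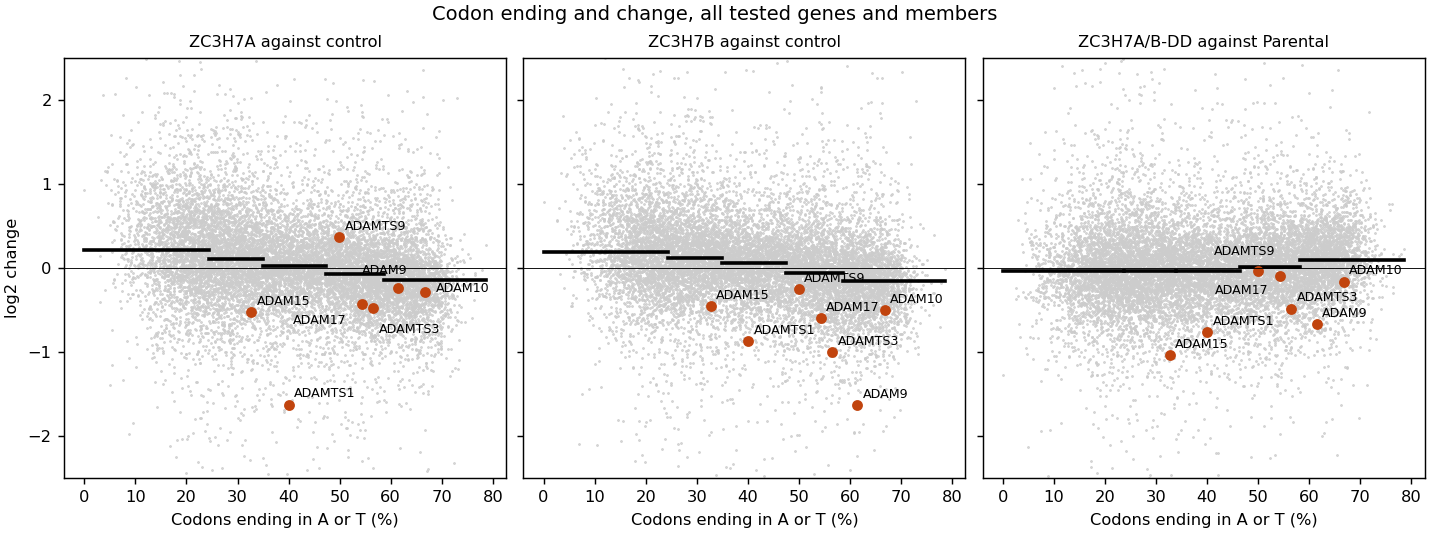
log2 change (vertical axis) against the percentage of codons ending in A or T (horizontal axis), in 3 comparisons. Grey points are all tested genes with a coding sequence (points beyond the axis are not drawn), black bars the medians of 5 equal bins of genes, and orange points the 7 members. The black bars step down from left to right in the first 2 panels, from 0.22 to -0.14 and from 0.19 to -0.15; the members were chosen on values in these panels. In the third panel the bars run from -0.03 to 0.10.

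The 5 genes whose log2 levels followed ADAM9 most closely over the 9 Flag/HA libraries, among 13672 genes, were PHTF2, PVRL3, SPAG9, ELOVL5 and SLC44A1, with Pearson r from 0.9968 to 0.9991. PVRL3, the adhesion protein nectin-3, had a log2 change of -5.06 with ZC3H7B, while SPAG9 had -0.42, so a like order of libraries came with very different sizes. For ADAMTS1 they were AGRN, GUF1, LAMA1, IGFBP7 and FAM129A, with r from 0.9948 to 0.9961. AGRN (agrin) and LAMA1 (a laminin chain) are basement membrane proteins. AGRN had log2 changes of -1.43 with ZC3H7A and -0.70 with ZC3H7B, and IGFBP7, a secreted binding protein, -4.40 and -2.26. These 9 libraries fall in 3 groups, so any gene with a like relative spacing of the 3 group levels scores high. The ADAM9 and ADAMTS1 levels used here also chose the members, so these lists are a description.

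**Figure D4:**
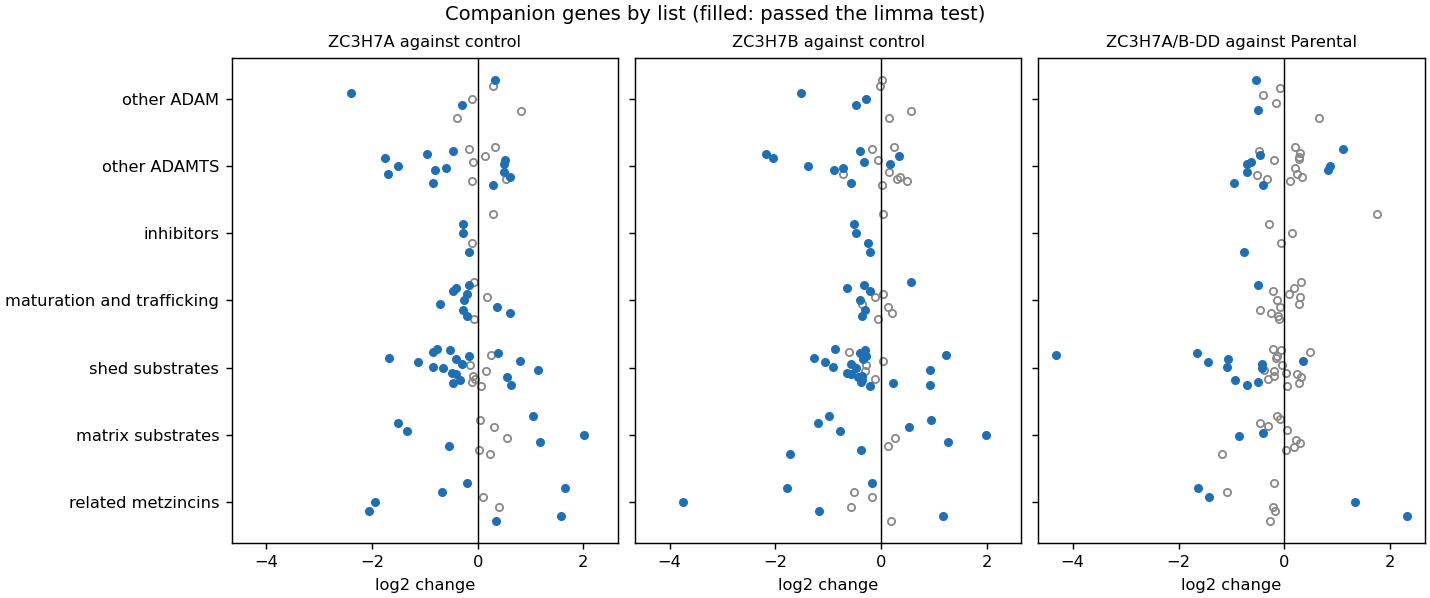
log2 changes (horizontal axis) of companion genes in 7 lists (rows) for the 3 comparisons. Filled points passed the limma test at an adjusted p under 0.05 and open points did not. With ZC3H7A 42 genes were lower and 19 higher of 90, with ZC3H7B 47 and 12 of 90, and in the libraries labelled ZC3H7A/B-DD 24 and 6 of 92.

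Companion genes of the pathway were counted in 7 lists of 116 genes, none of them a member. The lists were chosen with earlier results of these data known, so their counts may not be free of that choice. The medians of the tested genes were -0.13 with ZC3H7A, -0.30 with ZC3H7B and -0.16 in the libraries labelled ZC3H7A/B-DD, where all genes had 0.02, 0.04 and 0.02. With ZC3H7A 42 of 90 fell and 19 rose, and with ZC3H7B 47 of 90 fell and 12 rose, in comparisons that share their control. Of all genes tested, 28.2% fell and 29.2% rose with ZC3H7A and 25.4% fell and 28.9% rose with ZC3H7B by limma at an adjusted p under 0.05, and 13.5% and 11.0% did so against Parental. The counts of each list below stand against these shares. The 12 became 7 without control replicate 3 and also without ZC3H7B replicate 2. Against Parental, 24 of 92 fell and 6 rose in the libraries labelled ZC3H7A/B-DD. The 24 became 12 without Parental replicate 2 and 37 without Parental replicate 3. The 6 became 2 without Parental replicate 2 and 3 without replicate 1 or replicate 2 of the libraries labelled ZC3H7A/B-DD. Precision weights gave 44 and 16.

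Of 16 other ADAM genes, 7 were tested in the Flag/HA set. With ZC3H7A 2 fell, near the share of all genes, and 1 rose, under that share. With ZC3H7B 3 fell and 0 rose. ADAM21, a testis-type member with the zinc motif, fell from 144 ± 24.5 (SD, n = 3) to 27.3 ± 8.42 normalized counts with ZC3H7A (log2 change -2.39, limma adjusted p = 7.82e-09) and to 49.6 ± 7.62 with ZC3H7B (-1.52, adjusted p = 8.01e-06). ADAM23, a neural adhesion protein without the motif, fell with ZC3H7A (log2 change -0.30, limma adjusted p = 0.000487) and with ZC3H7B (-0.48, adjusted p = 1.98e-06). It also fell in the libraries labelled ZC3H7A/B-DD (-0.50, limma adjusted p = 0.0276), where 2 of 6 tested fell and 0 rose. ADAM11, which also lacks the motif, rose with ZC3H7A (0.32, limma adjusted p = 0.0122) and was the second gene to fall there (-0.54, adjusted p = 0.0250). The ADAM11 call with ZC3H7A was lost under quantile scaling (limma adjusted p = 0.0563) and without control replicate 2 or ZC3H7A replicate 1 (0.0617 and 0.0651). It was also lost in 1 limma fit of all 15 libraries (adjusted p = 0.0536). Against Parental, the calls of ADAM11 and ADAM23 were lost without Parental replicate 1 or 2 or ZC3H7A/B-DD replicate 1, and that of ADAM23 also without ZC3H7A/B-DD replicate 2 (limma adjusted p 0.0708 to 0.11). Both were also lost without the intensity trend (limma adjusted p = 0.0663 and 0.0713) and with the replicate block (0.0523 and 0.0597).

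Among 22 other ADAMTS and ADAMTS-like genes some fell and some rose. With ZC3H7A 8 of 19 tested fell and 5 rose, the rises near the share of all genes. With ZC3H7B 8 fell and 2 rose, the rises under that share. Against Parental 6 of 21 fell and 3 rose in the third comparison, the rises again near the share of all genes. The 2 higher with ZC3H7B became 0 without ZC3H7B replicate 2 or 3 and 1 without any other single library of control or ZC3H7B. Against Parental the 6 became 3 without Parental replicate 2, and the 3 became 1 without Parental replicate 1 or 2 or ZC3H7A/B-DD replicate 1 or 2. PAPLN (papilin), a matrix protein related to ADAMTS but without protease activity, fell by 0.85 on the log2 scale with ZC3H7A (limma adjusted p = 4.14e-07), by 0.56 with ZC3H7B (adjusted p = 0.000117) and by 0.95 in the libraries labelled ZC3H7A/B-DD (adjusted p = 0.00341). ADAMTS20 rose in each comparison, by log2 0.49, 0.18 and 0.86 (limma adjusted p = 4.88e-06, 0.0454 and 0.00405). The call with ZC3H7B was lost under TMM and quantile scaling (limma adjusted p = 0.0822 and 0.19), without the filter (0.0772) and without the intensity trend (0.0884). It was also lost by edgeR (adjusted p = 0.091) and DESeq2 (0.151), and in 1 limma fit of all 15 libraries (0.242). Leaving out any single library of control or ZC3H7B except control replicate 2 lost it too (limma adjusted p 0.0617 to 0.183). ADAMTS19 rose with ZC3H7A (0.52, limma adjusted p = 5.83e-06) and fell in the libraries labelled ZC3H7A/B-DD (-0.64, adjusted p = 0.00352). ADAMTS4, an aggrecanase, fell from 62.2 ± 7.25 to 21.1 ± 1.42 normalized counts with ZC3H7A (SD, n = 3, limma adjusted p = 5.82e-05). ADAMTS16 fell from 51.3 ± 8.60 to 11.2 ± 4.94 with ZC3H7B (limma adjusted p = 1.23e-05). ADAMTS6 rose in the libraries labelled ZC3H7A/B-DD (0.83, limma adjusted p = 0.0341), a call lost without any single library except ZC3H7A/B-DD replicate 3 (0.0596 to 0.0957).

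Inhibitors were among the genes that fell in the tagged lines. Of 5 tested, 3 fell with ZC3H7A and 4 with ZC3H7B, with 0 higher. TIMP1 fell by 0.29 on the log2 scale with ZC3H7A (limma adjusted p = 0.000121) and by 0.48 with ZC3H7B (adjusted p = 1.26e-07). TIMP3, the matrix-bound inhibitor of ADAM17 and several ADAMTS enzymes, fell by 0.17 with ZC3H7A (limma adjusted p = 0.0102), a call lost without control replicate 1 or 3 or ZC3H7A replicate 3 (0.052 to 0.0615). That call was also lost in 1 limma fit of all 15 libraries (adjusted p = 0.0808). RECK, a membrane-anchored inhibitor, fell by 0.51 with ZC3H7B (limma adjusted p = 8.99e-06). In the libraries labelled ZC3H7A/B-DD 1 of 5 changed: TIMP3 fell from 2816 ± 287 to 1661 ± 109 normalized counts (SD, n = 3, log2 change -0.76, limma adjusted p = 0.00108). Without Parental replicate 3 that count was 2, and without Parental replicate 1 another inhibitor was called higher.

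Genes for maturation and trafficking include the iRhoms and FRMD8, which bring ADAM17 to the surface, the tetraspanins that partner ADAM10, and the proprotein convertases that remove the inhibitory prodomain. With ZC3H7A 8 of 13 fell and 2 rose, and with ZC3H7B 6 fell and 1 rose. The 8 became 4 without control replicate 1 or 2, 3 without control replicate 3 or without the intensity trend, and 5 without ZC3H7A replicate 1. The 1 became 2 without control replicate 1. Convertase PCSK6 fell by 0.46 on the log2 scale with ZC3H7A (limma adjusted p = 4.43e-08), and PCSK5 by 0.41 with ZC3H7A (adjusted p = 1.74e-06) and 0.64 with ZC3H7B (adjusted p = 2.09e-09). FURIN fell by 0.32 with ZC3H7B (limma adjusted p = 0.000151) and by 0.49 in the libraries labelled ZC3H7A/B-DD (adjusted p = 0.0143). It was the 1 gene of 13 to change there. That call was lost without Parental replicate 2 (limma adjusted p = 0.0717) and without the intensity trend (0.0509). Without Parental replicate 3, 4 of these genes fell and 1 rose there. The ADAM10 partners TSPAN17 and TSPAN14 rose with ZC3H7A, by log2 0.61 and 0.36 (limma adjusted p = 1.04e-05 and 9.39e-05). FRMD8 rose with ZC3H7B by log2 0.57 (limma adjusted p = 0.000174).

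Of 30 proteins known to be shed by ADAM enzymes, 26 were tested. With ZC3H7A 14 fell and 5 rose, with ZC3H7B 17 fell and 4 rose, and in the libraries labelled ZC3H7A/B-DD 10 fell and 1 rose. The 10 became 6 without Parental replicate 2, and the 4 higher with ZC3H7B became 2 without ZC3H7B replicate 2. The Notch ligands went apart: JAG1 fell by 0.66 on the log2 scale with ZC3H7A and by 0.48 with ZC3H7B (limma adjusted p = 1.69e-11 and 3.74e-09), while JAG2 rose by log2 1.14 and 0.94 (adjusted p = 2.44e-13 and 6.45e-12). DLL1, a further Notch ligand, rose with ZC3H7A (0.80, limma adjusted p = 3.74e-07) and in the libraries labelled ZC3H7A/B-DD (0.35, adjusted p = 0.0415). The latter call was lost without any single library except ZC3H7A/B-DD replicate 1 (limma adjusted p 0.0636 to 0.135). It was also lost without the filter (limma adjusted p = 0.068), without the intensity trend (0.0808) and with the replicate block (0.0782). APLP2, a relative of the amyloid precursor, fell from 42474 ± 1505 to 24995 ± 1402 normalized counts with ZC3H7A and to 23137 ± 1430 with ZC3H7B (SD, n = 3, limma adjusted p = 1.93e-11 and 1.82e-12). TGFA, a ligand of the EGF receptor, rose with ZC3H7B (0.93, limma adjusted p = 0.000213). The hyaluronan receptor CD44 fell in the libraries labelled ZC3H7A/B-DD from 978 ± 86.6 to 311 ± 10.3 (limma adjusted p = 2.12e-05), and the membrane chemokine CXCL16 from 1125 ± 134 to 534 ± 12.2 (adjusted p = 0.000241). E-cadherin (CDH1), named after its value was seen, fell from 165 ± 17.1 to 8.82 ± 5.64 there (limma adjusted p = 0.000458).

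The matrix substrate list of 13 genes also held VEGFC, which ADAMTS3 matures, and CCBE1, a cofactor in that step. Both count in the numbers given here. Of the 13 genes, 11 were tested in the Flag/HA set. With ZC3H7A 3 fell and 3 rose, near the shares of all genes, and with ZC3H7B 5 fell and 4 rose. The 3 higher became 1 without ZC3H7A replicate 1. The 4 higher became 1 without control replicate 3 and 2 without ZC3H7B replicate 3. COL2A1, the type II collagen chain, fell from 10837 ± 409 to 4266 ± 283 normalized counts with ZC3H7A and to 6311 ± 339 with ZC3H7B (SD, n = 3, limma adjusted p = 1.12e-15 and 1.08e-11). CCBE1, a cofactor of ADAMTS3 in VEGFC maturation, fell from 220 ± 24.96 to 77.2 ± 12.4 with ZC3H7A (limma adjusted p = 5.75e-08). Versican (VCAN), a substrate of ADAMTS1 and ADAMTS9, fell by 0.37 on the log2 scale with ZC3H7B (limma adjusted p = 8.98e-07). Collagen COL3A1 and reelin (RELN) rose with ZC3H7A (2.02 and 1.17, limma adjusted p = 4.39e-06 and 0.0115) and with ZC3H7B (1.99 and 1.26, adjusted p = 5.99e-06 and 0.00754). The RELN calls were lost without control replicate 3, and without ZC3H7A replicate 1 or ZC3H7B replicate 3 (limma adjusted p 0.0548 to 0.0776). In the libraries labelled ZC3H7A/B-DD 2 of 12 fell, COL2A1 (-0.41, limma adjusted p = 0.0234) and COL3A1 (-0.85, adjusted p = 0.00217), and 0 rose. The COL2A1 call was lost without Parental replicate 1 or 2 or ZC3H7A/B-DD replicate 1 or 3 (limma adjusted p 0.0646 to 0.105). It was also lost without the intensity trend (limma adjusted p = 0.0535) and with the replicate block (0.06).

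Related metzincins, the wider class with matrix metalloproteases and the BMP1 group, had 9 of 16 genes tested. With ZC3H7A 4 fell and 3 rose, with ZC3H7B 4 fell and 1 rose, and in the libraries labelled ZC3H7A/B-DD 2 fell and 2 rose. The 3 that rose with ZC3H7A were near the share of all genes, and the 1 that rose with ZC3H7B was under it. With ZC3H7A the 3 higher became 1 without control replicate 1 or 2 or ZC3H7A replicate 1 or 2, and the 4 lower became 2 without control replicate 3 or ZC3H7A replicate 3. With ZC3H7B the 4 lower became 2 without control replicate 1 or 3 or ZC3H7B replicate 1, and the 1 higher became 2 without ZC3H7B replicate 3. Against Parental the 2 lower became 1 without Parental replicate 2 and 5 without Parental replicate 3, and the 2 higher became 1 without Parental replicate 2 or ZC3H7A/B-DD replicate 1. MMP2, a gelatinase, fell from 1042 ± 54.9 to 252 ± 30.4 normalized counts with ZC3H7A and to 464 ± 17.7 with ZC3H7B (SD, n = 3, limma adjusted p = 9.50e-15 and 1.22e-10). The membrane type MMP16 fell from 37.2 ± 1.70 to 9.76 ± 5.25 and to 1.93 ± 0.872 (limma adjusted p = 0.00142 and 5.57e-07), and rose in the libraries labelled ZC3H7A/B-DD from 10.5 ± 2.81 to 28.4 ± 7.78 (adjusted p = 0.0178). MMP24 rose in each comparison, by log2 1.57, 1.18 and 2.32 (limma adjusted p = 6.70e-05, 0.00142 and 0.000955). TLL2, of the BMP1 group, rose with ZC3H7A (0.35, limma adjusted p = 0.0278), a call lost under quantile scaling (0.123) and without control replicate 1 or 2 or ZC3H7A replicate 1 or 2 (0.0639 to 0.123). That call was also lost without the intensity trend (limma adjusted p = 0.131) and in 1 limma fit of all 15 libraries (0.0804). MMP15 fell from 2270 ± 127 to 845 ± 60.9 in the libraries labelled ZC3H7A/B-DD (limma adjusted p = 2.37e-05), as did MMP11, from 27.9 ± 3.94 to 8.73 ± 3.52 (adjusted p = 0.0132). Without Parental replicate 2 the calls of MMP11 and MMP16 in that comparison were lost (limma adjusted p = 0.0606 and 0.0701), and that of MMP16 also without ZC3H7A/B-DD replicate 1 (0.0628).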

How the data were processed

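The authors deposited 1 table of normalized counts, a signal per gene and library. Per the submitters' processing notes cutadapt, Bowtie, STAR, HTSeq and DESeq2 were used, with the builds hg38 and hg19; the build aligned to is not given in the sources used here. Values were whole multiples of 1 step per library, so whole reads were recovered (100% of values, within 0.001 reads). Tests used limma 3.58.1 in R 4.3.3 (eBayes with trend) on log2(value + 1), which understates changes of low genes, keeping genes that reached 10 in at least 3 libraries; p-values were adjusted by Benjamini-Hochberg and called at 0.05. Flag/HA libraries (9) were fitted together and the remaining 6 in a separate fit. Simulated data were used to test the procedure. edgeR 4.0.16 and DESeq2 1.42.0 on recovered reads, other pseudocounts, filters, scalings and weights, a replicate block and leaving out each library were alternatives. Coding sequences came from GENCODE release 29. From each companion list and comparison up to 2 genes per direction were named by smallest p, with libraries not overlapping and a mean of at least 20 in either group. Members and lists were chosen with earlier results of these data known. Names turned into dates (28) and duplicated names (4) could not be assigned.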

Additional observations from a re-analysis of the deposited data

How the results depend on the processing

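Each alternative was run on every count and on every member's change. In the Flag/HA set the members were chosen on their values, so the alternatives are no sign of stability there. In the libraries labelled ZC3H7A/B-DD the members called lower ran from 2 to 4 when single libraries were left out, with 2 without Parental replicate 2, where ADAM9 and ADAMTS3 lost their calls. The ADAMTS9 change there, -0.04, was 0.018 under quantile scaling and 0.0021 with precision weights, and between -0.11 and 0.051 over all alternatives, the latter without ZC3H7A/B-DD replicate 2. Companion genes called higher with ZC3H7B ran from 7 to 14. In the libraries labelled ZC3H7A/B-DD companion genes called higher ran from 2 to 16, with 2 to 5 when single libraries were left out, 3 at a filter of 50 and 16 with precision weights. Companion genes called lower there ran from 12 to 44, with 12 to 37 when single libraries were left out and 44 for precision weights, whose fit stopped before it converged. The cause of these shifts was not tested. Deviations from group means of same-numbered replicates had Pearson r across genes from -0.101 to 0.0402, and other-numbered ones from -0.0562 to 0.118. No pairing by number was seen, but groups of 3 libraries cannot exclude one. With the replicate block 4 members and 18 companion genes were called lower against Parental. Squared differences between replicates were 8.73 to 87.9 times those of counting noise in Parental and ZC3H7A/B-DD, against 1.65 to 6.06 in the Flag/HA set. Smaller changes are therefore harder to detect in the second set. ADAM12 and ADAMTS5 were too shallow to compare.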
